A study of Drosophila melanogaster with 6 samples.

Results

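Of the fly's protein-coding genes known only by a CG number, 14 counted as on in *de2f1b* salivary glands (SGs) and 0 as off. These 14 were at or near 0 in control SGs and at a normalized count of 30 or more in every *de2f1b* SG library. The genes were *CG43182*, *CG31664*, *CG13032*, *CG43742*, *CG43133*, *CG32204*, *CG33490*, *CG33271*, *CG16756*, *CG9395*, *CG13813*, *CG5568*, *CG33543* and *CG1924*. They were chosen from 6237 such genes, with *CG13135* and *CG33926* left out by name, by their normalized counts in this same contrast. A gene counted as on when all 4 *de2f1b* libraries were at 30 or more and both *w1118* libraries were below 5, and as off when the thresholds were met the other way round. A normalized count is the number of reads on a gene divided by 1 size factor per library, and in these libraries 1 read was worth between 0.782 and 1.37. Because these values chose the genes, the difference between the genotypes is described here without a test.

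RNA was sequenced from the salivary glands of wandering larvae of the last instar, raised at 25°C. The control was *w1118*, a white-eyed laboratory strain (replicates 1 and 4, n = 2 libraries), and the mutant was *de2f1b* (replicates 1 to 4, n = 4 libraries). The labels call these biological replicates and do not say how many larvae went into each. Neither the labels nor the study's list of genotypes names the alleles of the sequenced *de2f1b* larvae, or their sex. In its other experiments the study used *de2f1b* over a deficiency and, for RT-qPCR, *de2f1b* homozygotes. No library of another mutant strain was analysed here. The mutation and the rest of the genetic background of each strain therefore cannot be told apart, and the control rests on 2 libraries.

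A CG number is the identifier that a fly gene received when the genome was annotated by computer, and a gene keeps it as its name until someone names it after a phenotype, a family or a function. Such genes include many whose transcripts are made in few tissues or stages. The larval SG is a secretory organ whose cells stop dividing in the embryo and then copy their genome over and over without mitosis, which leaves giant polytene nuclei that make glue proteins late in larval life. E2f1 is the activating E2F transcription factor of the fly, it drives genes of DNA replication, and E2f1b is an isoform made by alternative splicing that is needed for these endocycles. The deposited table gives no description for any of the 14 genes, so no function is assigned to them below. *E2f1* itself had normalized counts of 12544 and 18666 in *w1118* and of 12895, 10267, 9304 and 7190 in *de2f1b*, values per gene that do not separate the isoforms.

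Reads on genes numbered from 56495956 to 94907006 per library, so that 3 reads, the limit that a count of 0 allows, correspond to a normalized count of 2.35 to 4.11. All 11 salivary gland markers were present, with a summed normalized count of 10130108 to 19466634 in *w1118* and of 7856121 to 18705933 in *de2f1b*. RNA of other tissues was also present and, for several tissues, uneven. The largest sums among these were those of the 8 fat body markers. They summed to 4491598 and 4890724 in *w1118* and to between 3105118 and 6077547 in *de2f1b*. The 9 midgut markers summed to 1448 and 924 in the controls and to 479445, 1808, 54607 and 2274 in *de2f1b* replicates 1 to 4. The 18 testis markers summed to 330 to 486 in *w1118* and to 526 to 612 in *de2f1b*, except for *de2f1b* replicate 3 with 4627. The controls also differed from each other. The 8 imaginal disc markers summed to 2901 in *w1118* replicate 1 and 684 in replicate 4, and to 931 to 5918 in *de2f1b*. In *w1118* replicates 1 and 4 the muscle markers summed to 51541 and 26619, and the nervous system markers to 4933 and 5988. Of the 8 ring gland markers, *sro* was at 4132 to 8605 in every library, and the other 7 summed to 57.5 and 32.1 in *w1118* and to 52.0, 54.8, 12286 and 16509 in *de2f1b* replicates 1 to 4, so that they were nearly absent except in *de2f1b* replicates 3 and 4. In bulk RNA of this kind, a change in the number of cells of a type and a change in the RNA per cell cannot be told apart.

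The gene with the highest level stood far apart from the other 13. *CG43182* (FBgn0262811) lies on the plus strand of chromosome X from 353067 to 353317 (positions throughout are those of assembly BDGP6 in Ensembl's annotation). It is a single exon with a coding length of 213 bases. Its normalized counts were 1.67 and 0 in *w1118* replicates 1 and 4 and 7736, 5303, 4334 and 13324 in *de2f1b* replicates 1 to 4, a mean of 7674 ± 4029 (SD, n = 4). Behind these values stood 2 reads in both controls together and 31501 reads in the mutant. Here and below, a ratio compares the groups, mutant over control, by their summed reads divided by their summed size factors. For *CG43182* it was 9335, with a 95% exact (Clopper-Pearson) interval of 2584 to 77083 that, as for every ratio below, covers counting error only.

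*CG31664* (FBgn0051664) lies on chromosome 2L from 1824172 to 1826500 on the minus strand, in 5 exons with 1818 coding bases. It was at 2.50 and 1.83 in *w1118* and at 632, 447, 336 and 795 in *de2f1b* replicates 1 to 4 (552 ± 202, SD, n = 4), a ratio of 259 (interval 111 to 800). *CG13032* (FBgn0036652, 3L, 16673964 to 16676264, plus strand, 3 exons) was at 0 and 0.917 in *w1118* and at 325, 277, 505 and 237 in *de2f1b* (336 ± 118, SD, n = 4). *CG43742* (FBgn0263999, 2R, 21935002 to 21936863, minus strand, 7 exons) was at 0.834 and 0 in *w1118* and at 289, 233, 189 and 655 in *de2f1b* (341 ± 213, SD, n = 4). *CG13032* and *CG43742* each had 1 read in both controls together, so that their ratios of 775 and 849 have wide intervals, from 139 to 30618 and from 152 to 33568. The highest library was not the same one for these genes, being replicate 4 for *CG31664* and *CG43742* and replicate 3 for *CG13032*.

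*CG43133* and *CG32204* had similar values across the mutant libraries. *CG43133* (FBgn0262607, X, 18129585 to 18130178, minus strand, 2 exons, 378 coding bases) was at 3.34 and 1.83 in *w1118* and at 265, 156, 206 and 239 in *de2f1b* (217 ± 47.0, SD, n = 4), a ratio of 83.6 (interval 38.2 to 228). *CG32204* (FBgn0052204) spans 3L from 18922419 to 18946038 on the minus strand and has 8 exons. It was at 4.17 and 1.83 in *w1118* and at 145, 171, 144 and 129 in *de2f1b* (147 ± 17.5, SD, n = 4), a ratio of 47.2 (interval 22.8 to 118). The highest mutant value of *CG32204* was 1.33 times the lowest, the smallest spread among the 14 genes.

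Values near 100 in the mutant were found for 5 genes. *CG33490* (FBgn0053490, 3L, 11572797 to 11574663, minus strand, 3 exons) was at 0 and 3.67 in *w1118* and at 70.7, 80.8, 120.3 and 100.1 in *de2f1b* (93.0 ± 21.9, SD, n = 4), a ratio of 55.3 (interval 21.4 to 204). *CG33271* (FBgn0053271), a single exon of 264 coding bases on the same strand of 3L from 11577006 to 11577495, was at 0 and 0.917 in *w1118* and at 160.1, 112, 65.1 and 82.9 in *de2f1b* (105 ± 41.5, SD, n = 4), a ratio of 225 (interval 40.2 to 8918). These 2 genes lie close together, and *CG33490* was lowest in *de2f1b* replicate 1, the library in which *CG33271* was highest. *CG16756* (FBgn0029765, X, 5427517 to 5428217, plus strand, 3 exons) was at 1.67 and 0 in *w1118* and at 53.4, 50.7, 79.6 and 158 in *de2f1b* (85.4 ± 50.1, SD, n = 4), a ratio of 109 (interval 29.9 to 901). *CG9395* (FBgn0032506), with 2520 coding bases the longest coding sequence of the 14, lies on 2L from 13349823 to 13355073 on the minus strand. It was at 1.67 and 0 in *w1118* and at 49.4, 82.2, 112 and 131 in *de2f1b* (93.6 ± 35.6, SD, n = 4), a ratio of 115 (interval 31.6 to 953). In contrast to *CG16756* and *CG9395*, which were highest in *de2f1b* replicate 4, *CG13813* was lowest there. *CG13813* (FBgn0036956, 3L, 20231669 to 20233255, plus strand, 2 exons) was at 4.17 and 3.67 in *w1118* and at 149, 91.8, 95.9 and 48.5 in *de2f1b* (96.4 ± 41.3, SD, n = 4), and its ratio of 22.9 (interval 11.9 to 50.4) was the smallest of the 14 genes.

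The last 3 genes lay close to the threshold of 30. *CG5568* (FBgn0035641, 3L, 5871501 to 5873518, plus strand, 3 exons) had 0 reads in both controls and normalized counts of 65.4, 57.5, 40.7 and 49.3 in *de2f1b* (53.2 ± 10.6, SD, n = 4). Against a floor of 3 reads over both controls together, it was at least 39.3-fold higher in *de2f1b*. *CG1924* (FBgn0030377, X, 12176440 to 12178626, minus strand, 1 exon) also had 0 reads in both controls. It was at 42.7, 45.2, 100.4 and 35.2 in *de2f1b* (55.9 ± 29.98, SD, n = 4), at least 43.7-fold higher by the same floor, and its highest value came from replicate 3. *CG33543* (FBgn0053543, 2L, 1997102 to 2006313, minus strand, 7 exons) was at 4.17 and 0 in *w1118* and at 40.01, 39.7, 76.9 and 50.05 in *de2f1b* (51.7 ± 17.5, SD, n = 4), a ratio of 24.7 (interval 10.4 to 76.7).

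**Figure D1:**
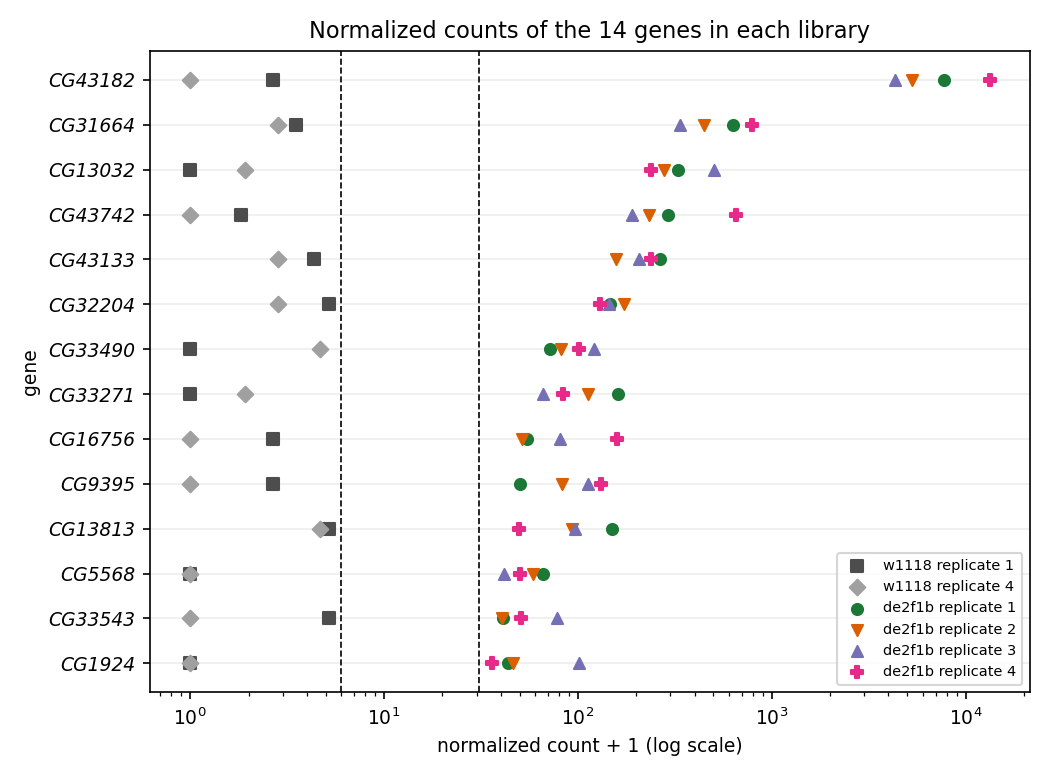
Normalized count plus 1 of each of the 14 genes on a log scale, with 1 point per library (grey squares and diamonds, *w1118* replicates 1 and 4; coloured symbols, *de2f1b* replicates 1 to 4) and dashed lines at the thresholds of 5 and 30. The *w1118* points lie left of the first line and the *de2f1b* points right of the other, as the rule requires, and *CG43182* stands apart at 4334 to 13324 in *de2f1b*.

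Across the 14 genes, the largest number of reads in a control library was 5 and the smallest in a *de2f1b* library was 29. In 9 of the 14 genes each control held at most 3 reads, and in 12 at least 1 read was seen in a control, so that a control level of 0 is not shown for most of them. All 14 passed the filter for the test across genes only through their *de2f1b* values. All 14 were then called higher by limma, against 3.17% of the 11099 genes tested and 3.95% of the CG genes among them. Of all genes tested, 4.24% were called in either direction. On the reads, edgeR called 11 of the 14 higher, against 198 of all genes, and DESeq2 called 14, against 1088. Since the same values chose the 14 genes, nothing is read from these counts. The median log2 difference over the 14 was 5.75, against 0.02 over all genes tested, and is fixed by the rule in the same way. Every *de2f1b* library lay above both controls for 17.4% of all genes tested and, by construction, for each of the 14.

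Levels can be compared between genes only per length. Per kilobase of exon, *CG43182* had a mean normalized count of 30574 in *de2f1b*. *CG43133* followed with 400.3 per kilobase, then *CG31664* with 266, *CG43742* with 226 and *CG33271* with 214. *CG43133* thus ranked second by this measure although 3 longer genes had higher counts. *CG16756* and *CG13032* were at 164 and 154 per kilobase, and *CG13813*, *CG33490* and *CG32204* lay between 49.3 and 63.1. The lowest levels per kilobase, from 18.6 to 27.8, were those of *CG5568*, *CG1924*, *CG9395* and *CG33543*. Along this order the ranges over the 4 mutant libraries overlapped from each gene to the next, except between *CG43182* and *CG43133*, between *CG13032* and *CG13813* and between *CG32204* and *CG5568*.

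Values just beyond the thresholds were much like those just within them. *CG1924*, *CG33543* and *CG5568* had the smallest lowest mutant values, from 35.2 to 40.7. *CG30486* missed the rule with 28.9 in *de2f1b* replicate 4, against 89.4, 37.0 and 42.5 in the other mutant libraries and 1.67 and 0 in the controls. *CG5819* and *CG32074* missed it with lowest values of 28.8 and 27.1. On the control side, *CG13813*, *CG33543* and *CG32204* were within it at 4.17 in *w1118* replicate 1, a value of 5 reads. *CG1695* and *CG12493* were outside it at 5.003 in the same library, which is 6 reads, and *CG4783* at 5.84. Membership on the control side was thus decided by single reads.

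**Figure D2:**
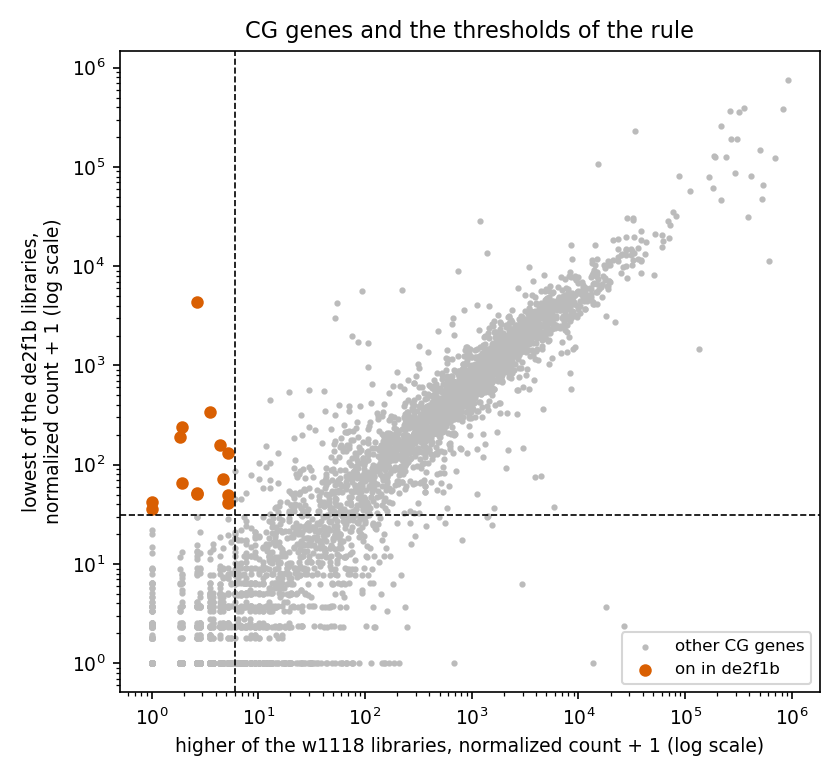
Each of the 6237 CG genes by the higher of its *w1118* values (x axis) and the lowest of its *de2f1b* values (y axis), both as normalized count plus 1 on log scales, with dashed lines at the thresholds of 5 and 30. The 14 chosen genes (orange) fill the upper left corner, 0.224% of the CG genes, and grey points lie on both sides of each line close to it.

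How many genes the rule found depended on the thresholds and on the controls. Thresholds of 50 and 3 left 6 of the 14 genes, *CG43182*, *CG31664*, *CG13032*, *CG43742*, *CG33271* and *CG16756*. Thresholds of 20 and 10 gave 33 genes on, which included all 14. Without *w1118* replicate 1, 34 genes were on, again with all 14 among them, and without *w1118* replicate 4 the number was 17. *CG14456* was 1 of the genes gained in that last case, with 0 in *w1118* replicate 1, 427 in *w1118* replicate 4 and 112 to 463 in *de2f1b*. The controls differed in markers of other tissues, as given above, and the part of that in these counts was not tested.

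No CG gene was switched off by the rule. Of the genes left out by name, *CG13135* was at 284156 and 599255 in *w1118* and at 61.4, 309.6, 9.95 and 89.9 in *de2f1b*, and *CG33926* was at 24.2 and 19.2 in *w1118* and at 1007 to 1374 in *de2f1b*. Neither would have met the rule, because the low group of each lay above 5, so the counts of 14 and 0 are the same with them. Among the genes the rule was applied to, the one that came closest to off was *CG13658*, with 54.2 and 66.9 in *w1118* and 8.003, 0, 7.24 and 7.04 in *de2f1b*, and it became the only gene off with thresholds of 20 and 10. *CG45095* was at 62.5 and 61.4 in *w1118* and at 16.0, 16.4, 3.62 and 11.7 in *de2f1b*. *CG7330* was at 31.7 and 159 in *w1118* and at 4.00, 5.48, 14.5 and 2.35 in *de2f1b*. In both genes the 4 *de2f1b* values lay under the 2 control values, with mutant values above the threshold of 5 in 2 or more libraries. Without *w1118* replicate 4 the count off was 6, and each of these 6 genes, such as *CG7031* with 143 in *w1118* replicate 1 and 0 in *w1118* replicate 4, was high in only 1 of the controls.

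The same rule applied to the 7691 other protein-coding genes, those with a name, found 13 on (0.169%) and 4 off (0.052%), beside 0.224% on and 0.0% off among CG genes, *CG13135* not counted. The difference between these shares was not tested. The 4 named genes that were off were *BomS1*, *BomS2*, *BomBc1* and *Dso1*, which encode short peptides induced by the Toll pathway in infected flies. *BomS1* was at 841 and 562 in *w1118* and at most 2.71 in *de2f1b*. The named genes that were on included *y*, which encodes a secreted protein needed for black cuticle pigment, *lectin-24A*, a C-type lectin, and *Mdr50*, an ABC transporter.

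The 14 genes ranged from short genes of a single exon to genes of 8 exons. The coding length had a median of 1443 bases and ranged from 213 to 2520, against a median of 924 over the 6235 CG genes with a position, and the median number of exons was 3 in both. A single exon was found in 3 of the 14, *CG43182*, *CG33271* and *CG1924*, against 21.2% of CG genes. Fewer than 500 coding bases were found in 4, *CG43182*, *CG33271*, *CG43133* and *CG16756*, against 23.7% of CG genes. By chromosome, 6 lay on 3L (42.9%, against 20.2% of CG genes), 4 on X (28.6%, against 16.4%), 3 on 2L (21.4%, against 18.9%) and 1 on 2R (7.14%, against 20.1%). None lay on 3R, which holds 24.0% of CG genes, or on chromosome 4. With 14 genes chosen from the values, these shares are a description.

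Reads of several of these genes could be shared with another gene. The kit and the counting are not stated to have used strand, and reads from genes that overlap on opposite strands could not then be told apart. *CG43182*, *CG43742* and *CG1924* each lie inside another gene on the opposite strand, *CG32816*, *Fili* and *Ten-a*, with 0 bases of exon overlap. *CG32816* was at 98.4 and 44.9 in *w1118* and at 26.7, 26.0, 44.3 and 117 in *de2f1b*, so that both controls lay above 3 of the 4 mutant libraries. *Fili*, which encodes a transmembrane protein with leucine-rich repeats, was at 761 and 75.2 in *w1118* and at 171, 149, 1098 and 787 in *de2f1b*. *Ten-a*, a teneurin that matches synaptic partners, was at 694 and 120.1 in *w1118* and at 253, 305, 2466 and 1429 in *de2f1b*. The controls held reads of all 3 host genes, and the gene inside was at 0 or 1 to 2 reads there. No host gene was called changed (limma, adjusted p = 0.655 for *CG32816*, 0.758 for *Fili* and 0.522 for *Ten-a*). The log2 differences of *Fili* (0.68, SE 1.19) and *Ten-a* (1.32, SE 1.13) had large errors. The part of host reads in the values of the genes inside was not tested. *CG1924* and *Ten-a* were both highest in *de2f1b* replicate 3.

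Exons of 4 genes overlapped exons of another gene. *CG13813* shares 83 bases, 5.44% of its exons, with *CG17233* on the opposite strand, which was at 1957 and 2032 in *w1118* and between 1970 and 2597 in *de2f1b*. *CG33543* shares 403 bases (14.5%) with the antisense RNA *asRNA:CR43464*, at 33.4 and 44.0 in *w1118* and between 29.8 and 61.4 in *de2f1b*. *CG5568* shares 208 bases (10.9%) with *CG18586* on the same strand, which had reads in 1 library only. *CG33271* shares 39 bases (7.96%) with *CG33489* on the same strand. In each control library *CG13813* and *CG33543* had at most 5 reads. The part of shared reads in the values of these genes was not tested.

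The genes next to the 14 were taken by position. Neighbours that are CG genes had been screened by the same rule and had not met it. Only neighbours that passed the filter were examined in the test across genes. The nearest protein-coding gene on each side that did not overlap, with the 14 left out, gave 27 genes, at a median of 2562 bases, of which 17 passed the filter. Of these, 4 were called higher in *de2f1b* (23.5%, against 3.17% of all genes tested) and 0 lower (against 1.07%), by limma at an adjusted p under 0.05, and 6 of the 17 had an unadjusted p under 0.05, against 21.6% of all genes tested. Without *y*, which passed the filter only through its mutant values as described below, 3 of 16 were called higher (18.75%). *CG13287*, which was not called, also passed only through its mutant values and stays among the 16. The called *CG33489* was taken as a neighbour of *CG33490*, which it does not overlap, but shares 39 exon bases with *CG33271*. These shares are therefore not fully independent of the choice of the 14. All 4 *de2f1b* libraries were above both controls for 4 neighbours (against 17.4%; 3 of 16 without *y*) and below both for 3 (against 16.0%). The median log2 difference of the 17 neighbours was 0.26. The 4 calls adjoin *CG43182*, *CG9395* and the pair *CG33490* and *CG33271*, and the other 10 genes had no called neighbour.

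*CG33267*, which directly abuts *CG33490* on the opposite strand, had the largest difference. It was at 14.2 and 18.3 in *w1118* and at 4953, 544, 7147 and 3018 in *de2f1b*, a log2 difference of 7.33 (SE 0.98, adjusted p = 0.0143, limma). *CG33489*, 0.1 kb on the other side of *CG33490*, was at 18.3 and 24.7 in *w1118* and at 239, 249, 212 and 196 in *de2f1b*, a log2 difference of 3.33 (SE 0.31, adjusted p = 0.00462, limma). The values of *CG33489* differed little among mutant libraries, in contrast to the 544 to 7147 of *CG33267*. *CG16826*, 0.802 kb from *CG9395*, was at 20.8 and 15.6 in *w1118* and at 283, 197, 104 and 90.7 in *de2f1b*, a log2 difference of 3.00 (SE 0.56, adjusted p = 0.0379, limma). *CG16826* was highest in *de2f1b* replicate 1, the library in which *CG9395* was lowest.

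*y*, 3.191 kb from *CG43182* on X, had 0 reads in both controls and was at 40.01, 31.5, 37.1 and 36.0 in *de2f1b* (log2 difference 5.21, SE 0.60, adjusted p = 0.00919, limma), at least 27.7-fold higher against 3 reads over both controls. *y* passed the filter only through its mutant values, so its count among the 17 is not independent of its change. On the other side of *CG43182*, 1.933 kb away, *CG43181* had 2 reads in the controls and 1 in *de2f1b*. Reads of *CG43182* and *y* were thus seen in every mutant library, and those of *CG43181* in only 1 of them. Both *y* and *CG43182* lie near the tip of X, and which X chromosome the mutant larvae carried is not stated in the labels.

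Some of these calls depended on single libraries. Those of *y* and *CG33489* stayed when any 1 *de2f1b* library was left out, and those of *CG33267* and *CG16826* did not. With replicate number added to the fit, only *CG33267* stayed called (limma, adjusted p = 0.0461), and *CG33489* did not (0.258). Without *w1118* replicate 1 the called neighbours were *y* and *CG33489*, without *w1118* replicate 4 only *CG33489* (adjusted p = 0.0382), and without *de2f1b* replicate 1 again *y* and *CG33489*. *CG16826* was lost without each of the 6 libraries in turn, with adjusted p from 0.0526 to 0.294 in limma, while its log2 difference stayed between 2.704 and 3.25.

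**Figure D3:**
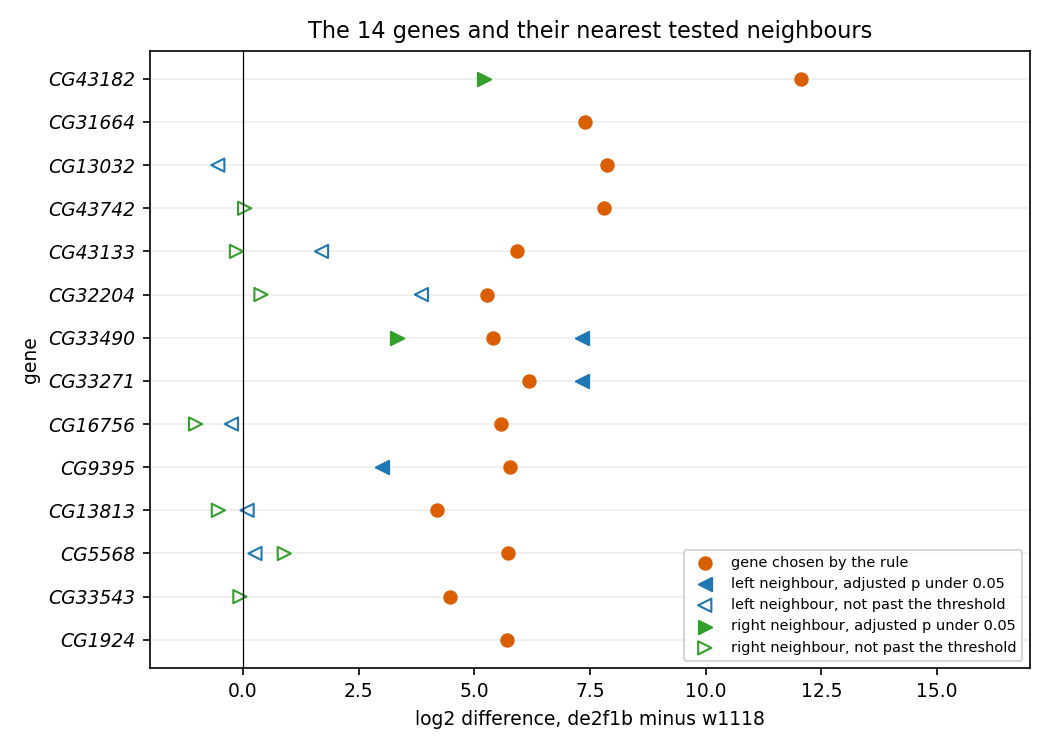
Log2 difference between *de2f1b* and *w1118* (x axis) for each of the 14 genes (orange points) and for its nearest tested neighbours on the left and the right (triangles, filled where limma's adjusted p was under 0.05), 1 line per gene. Filled triangles stand only beside *CG43182*, *CG33490*, *CG33271* and *CG9395*, and *CG33267* appears for both *CG33490* and *CG33271*.

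Of the neighbours that were not called, several are housekeeping genes of known role and had high levels in both genotypes. *zetaCOP*, a subunit of the coatomer, lies 0.408 kb from *CG13032* and was at 16391 and 25786 in *w1118* and between 10940 and 16955 in *de2f1b*. *ari-1*, a ubiquitin ligase, lies 0.213 kb from *CG43133* and was at 2406 and 2565 in *w1118* and between 2000 and 2538 in *de2f1b*. *Usp16-45*, a ubiquitin protease, lies 0.297 kb from *CG16756* and was at 2518 and 2545 in *w1118* and between 1950 and 2341 in *de2f1b*. These 3 genes were thus active in the controls within 0.5 kb of genes that had at most 6 reads over both controls. *CG15784*, on the other side of *CG16756*, was at 15551 and 18467 in *w1118* and at 9330, 10382, 6341 and 7940 in *de2f1b*, with a log2 difference of -1.02 (SE 0.22) that did not pass the test (limma, adjusted p = 0.0611).

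Another 10 neighbours were too low to test, and 5 of these were high in *de2f1b* replicate 3 alone. *CG31933* and *c-cup*, on either side of *CG31664*, were at 147 and 106 in replicate 3 and at 3.13 or less in each other library. *CG2750* and *CG32655*, on either side of *CG1924*, were at 261 and 142 in replicate 3 and at 1.37 or less elsewhere, and *PpN58A* beside *CG43742* was at 40.7. Replicate 3 is also the library with the high testis markers, all 18 of which had reads there, while 8 to 11 of the 18 were at 0 in each of the other libraries. The part of these markers in the neighbours' values was not tested. *CG31664* itself was lowest in replicate 3 (336), and *CG1924* was highest there (100.4). *CG3819*, beside *CG32204*, was at 10512 in *de2f1b* replicate 1, the library with the highest midgut markers, and at 77.8 or less in the others, whereas *CG32204* was at 129 to 171 in all 4.

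On chromosome 3L, 2 of the 14 lay beside both called neighbours *CG33267* and *CG33489*. *CG33490* and *CG33271* are 2342 bases apart, with *CG33489* between them, and were the only 2 of the 14 within 20 kb of each other. The next closest pair, *CG31664* and *CG33543*, is 170601 bases apart on 2L. From *CG33267* to *CG33269*, every *de2f1b* library was above both controls for 6 of the 8 genes, *CG33267*, *CG33490*, *CG33489*, *CG33271*, *CG33270* and *CG33269*, against 17.4% of all genes tested. Of these 6, *CG33490* and *CG33271* meet it by the rule and *CG33267* and *CG33489* passed the test. The ends of this stretch were set after its values were seen, so the count is a description. Genes too low to be tested are among the 8 but not in the 17.4%. *CG33270* was at 2.50 and 0 in *w1118* and at 5.34, 8.22, 6.33 and 3.91 in *de2f1b*, too low to be tested. *CG33269* had 0 reads in both controls and was at 13.3, 9.59, 5.43 and 9.38 in *de2f1b*, and was not tested either. The remaining 2, *CG43390* and *CG43391*, were at 0 in all 6 libraries.

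Beyond this stretch, none of the 4 genes drawn that could be tested passed the test. On the left, *Mob2* (log2 difference -0.02, limma, adjusted p = 0.956) and *CG7394* (-0.08, adjusted p = 0.828) had similar values in both genotypes. On the right, *rt*, a protein O-mannosyltransferase, was at 217 and 68.7 in *w1118* and at 45.4, 45.2, 219 and 227 in *de2f1b* (log2 difference -0.28, limma, adjusted p = 0.878). Farther right, *CG7368* was at 9.17 and 3.67 in *w1118* and at 24.0, 2.74, 36.2 and 32.8 in *de2f1b* (log2 difference 1.43, limma, adjusted p = 0.480). *CG46412*, *CG32086*, *CG7377* and *CG33268* were too low to be tested, and of these *CG32086* was at 43.4 in *de2f1b* replicate 3 and at 0.782 or less in each other library. The right end of the stretch, *CG33269*, is neither a chosen gene nor a nearest neighbour of a chosen gene. The limits of the stretch thus follow from the values shown and were not tested.

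**Figure D4:**
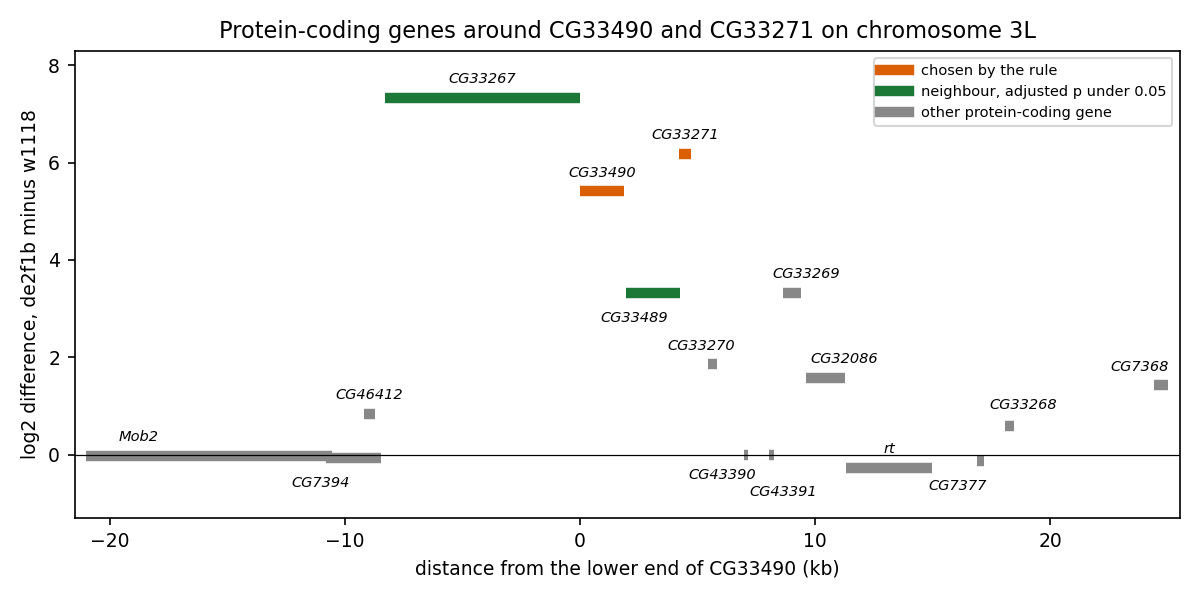
Protein-coding genes around *CG33490* and *CG33271* on 3L, drawn as bars from their lower to their upper end (x axis, distance in kb from the lower end of *CG33490*, cut at both margins) at their log2 difference between *de2f1b* and *w1118* (y axis). The chosen genes (orange) and the called neighbours (green) stand between 3.33 and 7.33, while *Mob2*, *CG7394* and *rt* lie near 0 and the other grey bars, among them *CG33269* at 3.33, were not tested or, for *CG7368* at 1.43, did not pass.

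The rule asks for a high value in every mutant library and so favours genes of even level, and the spread of the 14 among these libraries is given as a description. The highest *de2f1b* value was between 1.33 and 3.46 times the lowest, with a median of 2.41, and was under 2 times the lowest in 5 genes. The same quantity was 1.74 for the summed hemocyte markers, 1.96 for fat body, 2.38 for salivary gland and 2.63 for nervous system. It was 3.48 for trachea and cuticle, 3.54 for muscle, 6.35 for imaginal disc, 8.79 for testis and 265 for midgut. For the ring gland markers it was 3.06 with *sro* and 317 without *sro*. The highest value was in *de2f1b* replicate 1 for 4 genes, in replicate 2 for 1, in replicate 3 for 4 and in replicate 4 for 5. The lowest was in replicate 1 for 2 genes, in replicate 2 for 3, in replicate 3 for 5 and in replicate 4 for 4.

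The ring gland markers other than *sro* were high only in *de2f1b* replicates 3 and 4. The part of other tissues in the values of the 14 genes was not tested. With *de2f1b* replicates 3 and 4 left out, 17 CG genes were on, and with replicates 1 and 3 left out, the libraries with the most midgut markers, the number was also 17. All 14 were among them in both cases, as they must be when fewer libraries have to pass.

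**Figure D5:**
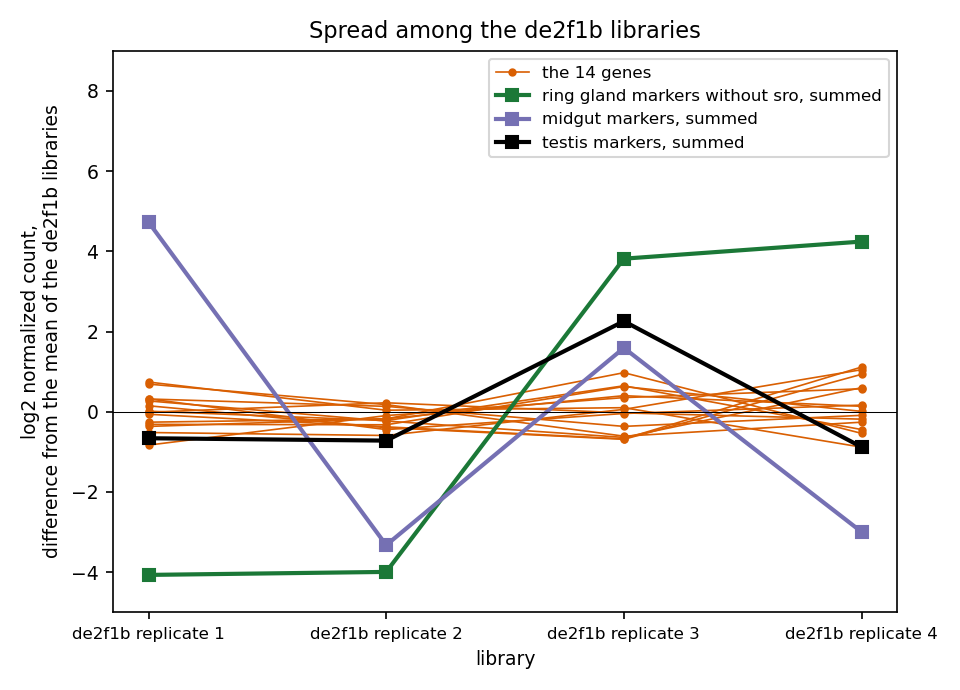
Difference of each gene's log2 normalized count from its own mean over the 4 *de2f1b* libraries (y axis, log2 units), by library (x axis), for the 14 genes (thin orange lines) and the summed markers of ring gland (without *sro*), midgut and testis (thick lines). The orange lines span at most 3.46-fold, as the rule favours, while the midgut line spans 265-fold and the line of the ring gland markers without *sro* 317-fold.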

How the data were processed

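The authors aligned the RNA-seq reads with STAR 2.7.6a, counted them on genes with featureCounts 1.6.0 (annotation release 102) and normalized them with DESeq2, whose version is not given in the sources used here. The deposited values are a signal, the read count of a gene divided by 1 size factor per library. Divided by the smallest value above 0 of their library, 100% of the values were whole at a tolerance of 0.01, so the reads could be recovered. The table also holds the authors' own comparison of the genotypes, which was not used.

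The 14 genes, the marker lists and the thresholds were chosen with earlier results of these data known. The rule was applied to protein-coding entries named CG and a number, without *CG33926* and *CG13135*, which the choice of genes left out by name. Every gene it found is named with full values, together with the 3 genes nearest to each threshold on either side and the called neighbours. Other genes are named after their values were seen.

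Genes at 10 or more in at least 2 libraries (11099 of 23932 entries) were tested with limma 3.58.1 in R 4.3.3, using log2 values after a pseudocount of 1, a variance trend over mean level and no covariate beside genotype. The p-values are two-sided and were adjusted over all genes tested by Benjamini-Hochberg. Log2 differences are on this scale, which understates changes of low genes. On the reads, edgeR 4.0.16 called 198 genes higher and DESeq2 1.42.0 called 1088, against 352 by limma. The p-values measure only the spread between these samples. Positions and gene structures are from Ensembl release 115 (BDGP6.54). Intervals and floors cover counting error only. Alternatives were other thresholds, pseudocounts, filters and scalings, a replicate block, and each library left out. Python 3.11.15, pandas 2.3.3, NumPy 2.4.6, SciPy 1.17.1 and Matplotlib 3.10.9 were used.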

Additional observations from a re-analysis of the deposited data

How the results depend on the processing

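Of 140 alternative log2 differences of the 14 genes, 108 moved by less than the spread between replicates and 32 moved by more. All lay within 2.33 to 12.77, and a pseudocount of 10 moved all 14. The sign changed in 0, which the rule had fixed by putting every mutant value above both controls. The count of CG genes on was 6 with thresholds of 50 and 3, 33 with 20 and 10, and 14 to 34 with 1 library left out, the highest without *w1118* replicate 1. Rescaling to the same total gave 16 and moved the median log2 difference of all genes from 0.02 to 0.18. The count off was 1 with 20 and 10 (*CG13658*), 0 to 6 with 1 library left out, and, in alternatives chosen after seeing the data, 1 without *de2f1b* replicates 3 and 4 (*CG34393*) and 1 without replicates 1 and 3 (*CG32817*). Neighbours of the 14 within 20 kb that were also among them numbered 2, and immediate ones 0. Genes higher and lower numbered 352 and 119 in limma, 208 and 71 without the filter, 198 and 89 in edgeR, 1088 and 556 in DESeq2, and 69 to 216 and 5 to 66 with 1 library left out. Called neighbours numbered 1 to 3 with 1 library left out, 1 with the replicate block and 3 to 6 under the other alternatives; of 52 alternative values of the 4 called neighbours, 16 missed the threshold and 0 changed sign. With 1 control left, the lone library is assumed to vary like the mutant libraries. Between same-numbered samples of the genotypes, deviations from the group means correlated at -0.32 for number 1 and -0.36 for number 4. The deviations of the 2 controls mirror each other, so these correlations cannot decide whether samples of the same number share a batch. A fit with the replicate block called 5 genes higher and 2 lower. Depth limits the control side, where 1 read decided membership. Promoter motifs and protein comparisons of the 14 were not run.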
